A study of Mus musculus with 9 samples.

Results

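The 34 genes described here encode the contractile machinery and the actin cytoskeleton of fibroblasts and muscle cells: 4 muscle actins, 5 transgelins and calponins, 6 myosin subunits with the myosin light chain kinase, 5 tropomyosins and caldesmon, 2 intermediate filament proteins, smoothelin and leiomodin, 8 cross-linkers and adhesion proteins, and 2 transcription regulators. They were chosen by name and not by a cut on a measured value, though with earlier results of these data known. Each gene was read from a probe set annotated to its symbol alone, and where several existed from that whose signal, averaged over the 9 arrays, was highest. All 34 were measured, among 19938 genes with such a probe set, and *Mkl1* was found under its current symbol, *Mrtfa*.

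The arrays hold total RNA of 3T3 cells, an immortalised line of mouse fibroblasts. The wild-type group bore an irrelevant shRNA and gave 3 unstimulated cultures and 3 cultures stimulated with TNF-α, an inflammatory cytokine, at 5 ng/ml for 1 h. The Trap-80 knock-down group bore an shRNA to Trap-80, a subunit of the Mediator complex that links transcription factors to RNA polymerase II, and gave 3 cultures, all stimulated in the same way. Per the paper, the knock-down cells were grown as clonal lines and 1 clone was chosen per hairpin. Whether the control line was also 1 clone is not stated there. An effect of the knock-down and a difference between clones therefore cannot be told apart. No unstimulated knock-down culture was analysed here, so a difference at rest and a difference in the response cannot be told apart either.

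Actin filaments slide along bipolar filaments of myosin II, and phosphorylation of the myosin regulatory light chain by its kinase sets this contraction in motion. Tropomyosins, calponins and caldesmon line the filaments and tune access of myosin, whereas α-actinins and filamin cross-link filaments and talin, vinculin and zyxin couple them to integrins at focal adhesions. Many of these genes are classical targets of the serum response factor SRF, which binds the CArG box, and of its coactivator MRTF-A, the product of *Mkl1*, which free actin monomers hold in the cytoplasm.

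The 250 bases upstream of the RefSeq start site (assembly GRCm38.p6) were searched on both strands for the CArG box and 5 other motifs, in 36 windows of 31 of the genes. No window was given for *Actg2*, *Tagln* or *Myh11*. The CArG box (CCWWWWWWGG, W being A or T) lay in 7 of the 36 windows (19.4%), against 1.47% of all 32851 windows of the same length. The 7 were those of *Acta1*, *Actc1*, *Cnn2*, *Myl6*, *Myl9*, *Vcl* and *Srf*. Only exact matches counted, so ccctatatgg in the windows of *Acta2* and *Actc1*, which breaks the pattern at a C, did not. The TATA box (TATAAA) lay in 16.7% of the windows, against 12.4% of all windows. The GC box (GGGCGG) lay in 61.1%, against 32.7%. A TEAD site (CATTCC) lay in 33.3%, against 12.6%, and an AP-1 site (TGANTCA) in 11.1%, against 6.75%. A κB motif (GGGRNNYYCC, R being A or G, Y being C or T and N any base) lay in 25.0%, against 7.25%. Matches to different motifs could overlap, as those of the CArG box and the κB motif did in *Vcl*, and a match is a run of letters, not a bound site.

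In the direction of transcription and with CArG and TATA boxes in capitals, 6 of these windows set *Acta1*, the only gene among the 31 searched with both a CArG box and a difference that passed the test for the knock-down without the replicate block, beside genes with a CArG box that did not pass it (*Srf*, *Actc1* and *Myl9*, of which *Myl9* passed with the block) and genes that passed it without a CArG box in the window (*Tpm2*, *Actn1*). The CArG box of *Acta1* (chr8:123894776-123895025, minus strand) lay at -73 to -64 from the start site, and the boxes of *Srf* (chr17:46556163-46556412, minus strand) at -82 to -73 and -62 to -53. That of *Actc1* (chr2:114052876-114053125, minus strand) lay at -47 to -38 and that of *Myl9* (chr2:156775214-156775463, plus strand) at -161 to -152. The windows of *Tpm2* (chr4:43523555-43523804) and *Actn1* (chr12:80260364-80260613), both on the minus strand, held GC boxes but neither a CArG nor a TATA box.
Acta1: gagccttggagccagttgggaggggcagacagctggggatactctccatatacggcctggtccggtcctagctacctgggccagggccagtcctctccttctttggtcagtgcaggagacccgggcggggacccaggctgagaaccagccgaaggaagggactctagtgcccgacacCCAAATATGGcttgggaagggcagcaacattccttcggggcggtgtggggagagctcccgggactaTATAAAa
Srf: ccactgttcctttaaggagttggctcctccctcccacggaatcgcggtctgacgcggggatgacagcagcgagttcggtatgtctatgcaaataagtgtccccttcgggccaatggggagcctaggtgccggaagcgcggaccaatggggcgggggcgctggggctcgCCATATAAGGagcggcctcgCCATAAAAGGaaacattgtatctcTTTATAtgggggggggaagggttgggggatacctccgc
Actc1: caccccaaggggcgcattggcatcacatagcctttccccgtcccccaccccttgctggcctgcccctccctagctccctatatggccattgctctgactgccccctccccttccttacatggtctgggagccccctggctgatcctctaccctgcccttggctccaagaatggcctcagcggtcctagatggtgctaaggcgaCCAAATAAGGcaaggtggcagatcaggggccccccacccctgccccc
Myl9: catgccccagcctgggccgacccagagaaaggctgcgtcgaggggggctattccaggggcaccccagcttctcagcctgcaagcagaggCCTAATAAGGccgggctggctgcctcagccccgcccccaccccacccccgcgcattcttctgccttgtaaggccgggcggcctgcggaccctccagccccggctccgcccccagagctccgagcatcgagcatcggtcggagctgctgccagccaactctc
Tpm2: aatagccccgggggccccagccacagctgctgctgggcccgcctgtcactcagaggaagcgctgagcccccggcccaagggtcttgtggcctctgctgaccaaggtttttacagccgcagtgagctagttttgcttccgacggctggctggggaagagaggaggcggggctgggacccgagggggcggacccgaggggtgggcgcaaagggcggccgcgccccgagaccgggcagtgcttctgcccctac
Actn1: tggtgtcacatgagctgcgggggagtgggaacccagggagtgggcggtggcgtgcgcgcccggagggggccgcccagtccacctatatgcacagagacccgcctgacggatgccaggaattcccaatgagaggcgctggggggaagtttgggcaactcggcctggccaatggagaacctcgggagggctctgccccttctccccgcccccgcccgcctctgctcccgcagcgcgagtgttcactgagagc

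Values are log2 signals from RMA, a procedure that subtracts background, brings the arrays to a common distribution and gives 1 value per probe set. Array medians lay between 4.95 and 5.09, and log2 differences had a median standard error of 0.10. The gene of Trap-80, *Med17*, read 8.10, 8.09 and 7.89 in the unstimulated wild-type arrays, 7.98, 7.93 and 7.77 in the stimulated wild-type arrays and 6.35, 6.22 and 6.17 in the knock-down arrays. The knock-down arrays lay below all others and kept 32.0% of the stimulated wild-type signal, with p = 0.1 in a two-sided exact permutation test, where 3 arrays against 3 allow no smaller value. That share is one of array signal. By quantitative PCR the paper reports a larger loss of Trap-80 mRNA, and by western blotting it could no longer detect the protein. A gene passed the test where limma gave an adjusted p under 0.05, with Benjamini-Hochberg adjustment over the 23410 probe sets with a gene. A pass is written as a rise or a fall, and a signal is read for each gene against itself, never against another gene.

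After 1 h of TNF-α, none of the 34 genes passed the limma test in wild-type cells, where 0.115% of the tested probe sets did. With no adjustment (p under 0.05), 1 of the 34 was higher and 0 were lower, against 3.52% and 3.58% of all tested. None passed with the replicate number as a block either, where 0.235% did. All 34 differed by less than 1.5-fold, with a median log2 difference of 0.00 against -0.02 over all tested probe sets. Of the differences, 18 lay above 0 (against 45.0% of tested probe sets) and 16 below. After centring each array on its median 7 lay above and 27 below, with a median of -0.07 over all tested probe sets. No direction is therefore given for the group.

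*Actc1*, the α-actin of cardiac muscle, was the gene that passed without adjustment. Its log2 signal was 5.68, 5.50 and 5.95 in unstimulated arrays and 6.13, 6.45 and 6.24 in stimulated wild-type arrays. The lowest stimulated array lay above the highest unstimulated one, as in 4.01% of tested probe sets. The difference was 0.56 (95% confidence interval 0.24 to 0.88, adjusted p = 0.41 from limma). In the knock-down arrays *Actc1* read 6.31, 6.04 and 5.92, which overlapped both wild-type groups. *Myh10*, the heavy chain of non-muscle myosin IIB, was the only other gene whose arrays did not overlap, at 9.50, 9.46 and 9.41 before and 9.40, 9.34 and 9.36 after TNF-α. Its difference was -0.09 (95% confidence interval -0.25 to 0.07, adjusted p = 0.80 from limma), and 6.18% of tested probe sets were lower without overlap.

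*Acta1* differed by 0.33 (-0.01 to 0.68, adjusted p = 0.70), the only other difference of at least 0.2 on the log2 scale. The regulators *Srf* and *Mkl1* differed by -0.06 (adjusted p = 0.89) and 0.00 (adjusted p = 1.0). With 3 arrays per group the intervals of the 34 genes were wide where replicates varied, as in *Actg2* (0.08, -0.61 to 0.76).

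The knock-down was compared with wild-type cells after TNF-α. Here 4 of the 34 genes rose and 1 fell by the limma test, where 3.36% of the tested probe sets rose and 2.60% fell. *Actg2*, the γ-actin of enteric smooth muscle, rose 3.03-fold, *Tpm2*, the β-tropomyosin, 1.75-fold, *Actn1*, the cross-linker α-actinin 1, 1.69-fold and *Acta1*, the α-actin of skeletal muscle, 1.68-fold. *Mkl1*, the SRF coactivator, fell 1.43-fold. The other 29 genes did not pass. The median log2 difference of the 34 was 0.14 against -0.02 over all tested probe sets. Differences lay above 0 in 27 of the 34 (against 45.4% of tested probe sets), in 28 after median centring and in 25 after quantile normalization. These scalings moved the median over all tested probe sets to 0.04 and -0.0011. RNA of a whole culture was measured, so more cells with a transcript and more transcript per cell cannot be told apart.

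With no adjustment (p under 0.05), 10 genes were higher and 1 was lower, where 9.34% of tested probe sets were higher and 8.09% lower. The knock-down arrays lay above all stimulated wild-type arrays in 12 genes and below them in 2, against 10.9% and 10% of tested probe sets. With the replicate number as a block term, 7 of the 34 rose and 1 fell, where 4.94% and 4.07% of tested probe sets did. These were the 5 above and *Myl9*, *Smtn* and *Tln1*. Across the tested probe sets, 56.3% of those that passed were higher, and 68.0% after median centring. The count of members that passed was 3 without stimulated wild-type array 1 or 2 or knock-down array 1 or 3, and *Tpm2*, *Actn1* and *Mkl1* passed without any single array.

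**Figure D1:**
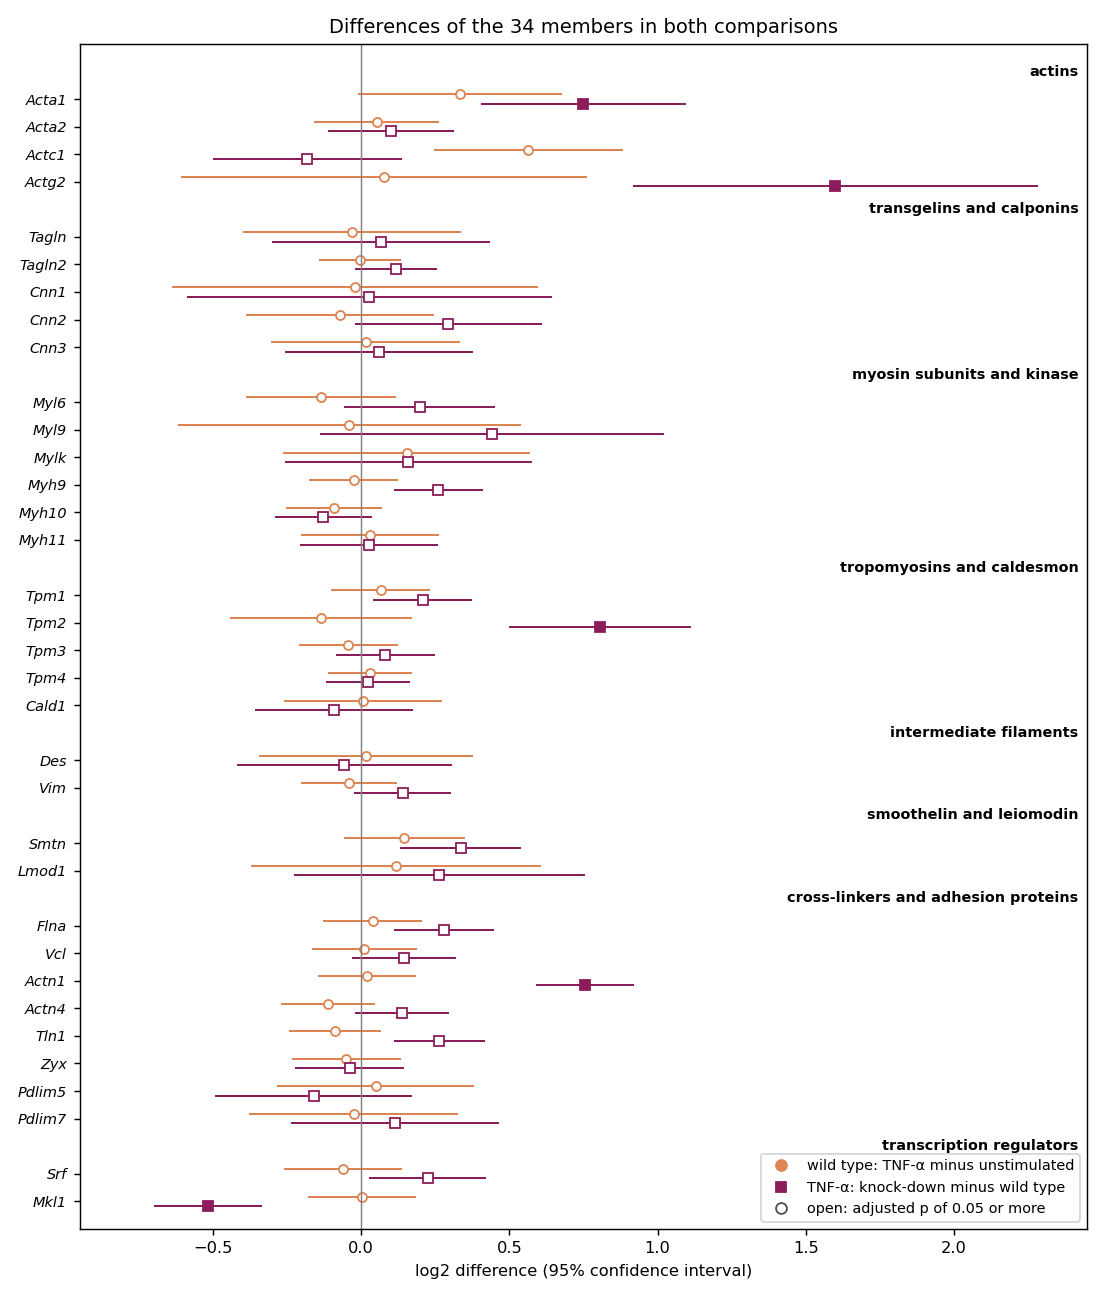
Log2 differences with 95% confidence intervals (horizontal axis) for the 34 genes by role (vertical axis), for TNF-α in wild-type cells (circles) and for knock-down against wild-type cells after TNF-α (squares), which share the stimulated wild-type arrays. Filled symbols passed the limma test: no circle is filled, and the filled squares are *Actg2* at 1.60, *Tpm2* at 0.80, *Actn1* and *Acta1* at 0.75 and *Mkl1* at -0.52.

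Of the 4 muscle actins, *Actg2* and *Acta1* rose in the knock-down. *Actg2* read 6.83, 6.10 and 6.75 in unstimulated wild-type arrays, 6.75, 6.18 and 6.97 in stimulated wild-type arrays and 8.41, 7.63 and 8.66 in knock-down arrays. Every knock-down array lay above every wild-type array, and array 2 was the lowest of each group. The knock-down difference was 1.60 (95% confidence interval 0.92 to 2.28, adjusted p = 0.015 from limma). *Acta1* read 5.96, 6.16 and 6.42, then 6.42, 6.35 and 6.77, then 7.41, 7.06 and 7.33 in the same order of groups. Again the knock-down arrays did not overlap the others, while the stimulated wild-type arrays overlapped the unstimulated ones. Its difference was 0.75 (0.40 to 1.09, adjusted p = 0.022). Without stimulated wild-type array 1 or 2 or knock-down array 1 or 3, neither passed, with differences of at least 1.37 for *Actg2* (adjusted p up to 0.065) and 0.67 for *Acta1* (adjusted p up to 0.090). *Acta1* also missed the threshold when all 35557 probe sets were tested (adjusted p = 0.055).

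*Acta2*, the α-actin of vascular smooth muscle and of myofibroblast stress fibres, read 12.90, 12.82 and 12.90 in unstimulated wild-type arrays, 12.87, 12.82 and 13.08 in stimulated wild-type arrays and 13.05, 12.88 and 13.15 in knock-down arrays. The groups overlapped, with a knock-down difference of 0.10 (-0.11 to 0.31, adjusted p = 0.66). *Actc1* differed by -0.18 (-0.50 to 0.14, adjusted p = 0.59). The coding sequences of actins are closely related, and how far each probe set reads the transcript of another actin was not tested.

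**Figure D2:**
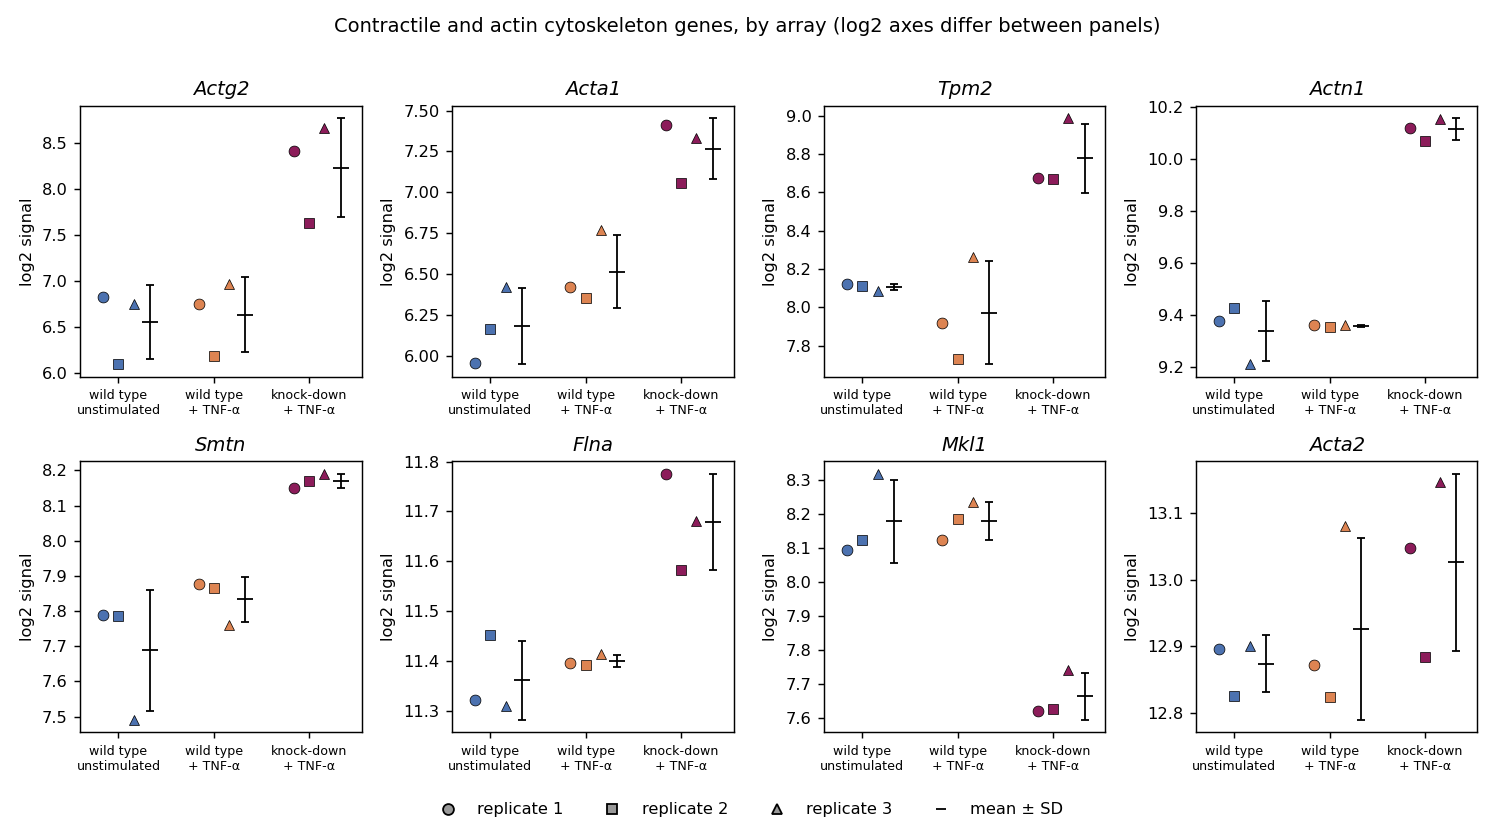
Log2 signal (vertical axis, a separate range in each panel) of 8 genes in the 9 arrays by group (horizontal axis), with a symbol for each replicate number and bars for mean ± SD of 3 arrays. The knock-down arrays lie above all wild-type arrays in *Actg2*, *Acta1*, *Tpm2*, *Actn1*, *Smtn* and *Flna* and below them in *Mkl1*, and overlap them in *Acta2*.

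None of the 5 transgelins and calponins passed in the knock-down, with or without the block. *Tagln*, which encodes the actin-binding protein SM22α and marks early smooth muscle, differed by 0.07 (-0.30 to 0.43, adjusted p = 0.89), and *Cnn1*, the calponin of smooth muscle, by 0.03 (-0.59 to 0.64, adjusted p = 0.98). *Cnn1* was 8.83, 8.35 and 9.29 in stimulated wild-type and 8.90, 8.41 and 9.24 in knock-down arrays, so each group spanned nearly the same range. *Cnn2* and *Cnn3*, the calponins of non-muscle cells, differed by 0.29 (adjusted p = 0.33) and 0.06 (adjusted p = 0.89). *Tagln2* differed by 0.12 (adjusted p = 0.39), with knock-down arrays at 9.87, 9.90 and 9.94 above stimulated wild-type arrays at 9.77, 9.76 and 9.83.

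Of the 6 myosin genes none passed without the block. *Myl9*, the regulatory light chain on which the kinase acts, read 9.27, 8.79 and 9.46 in unstimulated wild-type, 9.24, 8.59 and 9.58 in stimulated wild-type and 9.59, 9.31 and 9.82 in knock-down arrays. The groups overlapped, but each knock-down array lay above both wild-type arrays of its number. The difference was 0.44 (-0.14 to 1.02, adjusted p = 0.44, and 0.031 with the replicate number as a block). *Myh9*, the heavy chain of non-muscle myosin IIA, was 10.68, 10.67 and 10.65 in stimulated wild-type and 11.01, 10.85 and 10.92 in knock-down arrays, which did not overlap. Its difference of 0.26 (0.11 to 0.41) missed the threshold (adjusted p = 0.056). A dimmer *Myh9* probe set differed by 0.83 (adjusted p = 0.14).

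*Myh10* had a difference of -0.13 (-0.29 to 0.04, adjusted p = 0.43), with knock-down arrays at 9.27, 9.12 and 9.32 below all wild-type arrays. *Myl6*, the essential light chain, differed by 0.20 (adjusted p = 0.43), and its 5 further probe sets by 0.18 to 0.24. Whether these probe sets read the same transcript was not tested, so they are not counted as separate measurements. *Mylk*, the kinase, and *Myh11*, the heavy chain of smooth muscle myosin, differed by 0.16 (adjusted p = 0.74) and 0.03 (adjusted p = 0.94). The means of *Mylk*, 4.83, and *Myh11*, 4.44, were under 5.02, the median over all probe sets of their mean signal, as were those of *Des* and *Lmod1*.

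Among tropomyosins and caldesmon, *Tpm2* rose. It read 8.12, 8.11 and 8.09 in unstimulated wild-type, 7.92, 7.73 and 8.26 in stimulated wild-type and 8.68, 8.67 and 8.99 in knock-down arrays. All knock-down arrays lay above all wild-type arrays. The difference was 0.80 (0.50 to 1.11, adjusted p = 0.0090), with a range of 0.68 to 0.95 when any array was left out. *Tpm1*, the α-tropomyosin, was 11.63, 11.67 and 11.75 in stimulated wild-type and 11.94, 11.78 and 11.97 in knock-down arrays. These did not overlap either, but the difference of 0.21 (0.04 to 0.38) did not pass (adjusted p = 0.17). *Tpm3* differed by 0.08 (adjusted p = 0.65), *Tpm4* by 0.02 (adjusted p = 0.90) and *Cald1*, caldesmon, by -0.09 (adjusted p = 0.77). The further, dimmer *Tpm3* probe sets differed by 0.04 to 0.25 (adjusted p from 0.33 to 0.89). Which of the *Tpm3* probe sets reads its transcript best was not tested.

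Neither intermediate filament gene passed. *Vim*, the vimentin of mesenchymal cells, was 12.49, 12.63 and 12.67 in stimulated wild-type and 12.69, 12.73 and 12.79 in knock-down arrays, a difference of 0.14 (-0.02 to 0.30, adjusted p = 0.38). *Des*, the desmin of muscle, differed by -0.06 (adjusted p = 0.91). *Smtn*, the smoothelin of contractile smooth muscle, read 7.79, 7.79 and 7.49 in unstimulated wild-type, 7.88, 7.87 and 7.76 in stimulated wild-type and 8.15, 8.17 and 8.19 in knock-down arrays. The knock-down arrays lay above the others, with a difference of 0.34 (0.13 to 0.54, adjusted p = 0.067, and 0.047 with the block). *Lmod1*, the actin nucleator leiomodin 1, differed by 0.26 (-0.23 to 0.75, adjusted p = 0.61).

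Of the 8 cross-linkers and adhesion proteins, *Actn1* rose. It read 9.38, 9.43 and 9.21 in unstimulated wild-type arrays, 9.36 in each stimulated wild-type array and 10.12, 10.07 and 10.15 in knock-down arrays. The gap between the groups was larger than the whole range within any of them. The difference was 0.75 (0.59 to 0.92, adjusted p = 6.5e-04), the smallest adjusted p of the 34 genes. *Actn4*, the second non-muscle α-actinin, differed by 0.14 (-0.02 to 0.30, adjusted p = 0.37). *Flna*, the cross-linker filamin A, read 11.32, 11.45 and 11.31 in unstimulated wild-type, 11.39, 11.39 and 11.41 in stimulated wild-type and 11.78, 11.58 and 11.68 in knock-down arrays. They did not overlap, and the difference of 0.28 (0.11 to 0.45) missed the threshold (adjusted p = 0.065).

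*Tln1*, the integrin-binding talin 1, was 9.22, 9.22 and 9.14 in stimulated wild-type and 9.51, 9.45 and 9.42 in knock-down arrays. These did not overlap, and the difference was 0.26 (0.11 to 0.42, adjusted p = 0.059, and 0.047 with the block). *Vcl*, vinculin, differed by 0.15 (adjusted p = 0.40), *Zyx*, zyxin, by -0.04 (adjusted p = 0.87), and the PDZ-LIM proteins *Pdlim5* and *Pdlim7* by -0.16 (adjusted p = 0.66) and 0.11 (adjusted p = 0.79). The sign of *Zyx* changed after median centring.

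Of the 2 transcription regulators, *Mkl1* fell. It read 8.09, 8.12 and 8.32 in unstimulated wild-type, 8.12, 8.18 and 8.23 in stimulated wild-type and 7.62, 7.63 and 7.74 in knock-down arrays. All knock-down arrays lay below all wild-type arrays. The difference was -0.52 (-0.70 to -0.34, adjusted p = 0.0060), and between -0.56 and -0.49 when any array was left out. *Srf*, whose own promoter window holds 2 CArG boxes, read 8.65, 8.58 and 8.83 in stimulated wild-type and 8.80, 8.93 and 9.0 in knock-down arrays. The groups overlapped, and the difference of 0.22 (0.03 to 0.42) did not pass (adjusted p = 0.22).

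Knock-down cells after TNF-α were also set against unstimulated wild-type cells, a comparison that shares its arrays with both others. Here 6 of the 34 genes rose and 1 fell, where 3.64% of tested probe sets rose and 4.62% fell, and the median was 0.13. *Actg2* differed by 1.68 (adjusted p = 0.0096), *Acta1* by 1.08 (adjusted p = 0.0029), *Actn1* by 0.77 (adjusted p = 4.5e-04), *Tpm2* by 0.67 (adjusted p = 0.017) and *Mkl1* by -0.52 (adjusted p = 0.0048). *Smtn* at 0.48 (adjusted p = 0.011) and *Flna* at 0.32 (adjusted p = 0.030) passed here as well. *Flna* missed the threshold without any of 5 arrays, namely unstimulated wild-type array 1 or 3, stimulated wild-type array 1 or knock-down array 1 or 3 (adjusted p up to 0.10). It also missed it in a fit of the 6 arrays alone, with all probe sets and after median centring (adjusted p up to 0.078). *Tpm2* missed it without unstimulated wild-type array 1 or 2 or knock-down array 3 (adjusted p up to 0.059). *Myl9* differed by 0.40 and passed with the block (adjusted p = 0.037, against 0.44 without it).

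Other genes of actin regulation were read from 8 lists of 124 genes, of which 115 were measured. In the TNF-α response 2 rose and 0 fell, where 0.115% of all tested probe sets passed. *Junb*, an immediate-early gene with SRF in its control, rose by 1.41 (adjusted p = 2.5e-04), and *Rnd1*, whose product opposes stress fibres, by 1.91 (adjusted p = 0.0495, and 0.066 with the block). *Rnd1* read 7.11, 7.09 and 5.96 before and 8.54, 8.55 and 8.79 after TNF-α, with unstimulated array 3 far below the other two, and missed the threshold in 8 of the 9 fits without an array (adjusted p up to 0.22).

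In the knock-down 16 of the 115 rose and 4 fell, where 3.36% of all tested probe sets rose and 2.60% fell. Of 15 measured actins and proteins of actin turnover 3 rose and 0 fell (5 rose with the block). They were *Tmsb4x*, the monomer-binding thymosin β4, at 0.83 (adjusted p = 0.0024), *Cap1*, a cyclase-associated protein that recycles monomers, at 0.47 (adjusted p = 0.0071) and *Cfl2*, the muscle cofilin that severs filaments, at 0.45 (adjusted p = 0.0063). The cytoplasmic β-actin gene *Actb* differed by 0.04 (adjusted p = 0.81). Of 11 other myosins and intermediate filament genes 3 rose and 0 fell, among them *Nes*, nestin, at 1.65 (adjusted p = 4.8e-04). The others were *Myl12b* at 0.57 (adjusted p = 0.041) and *Myl12a* at 0.38 (adjusted p = 0.024). They missed the threshold in 6 and 5 of the 9 fits without an array. Of 7 SRF cofactors 2 rose and 0 fell, *Fhl1*, a LIM-only protein, at 0.87 (adjusted p = 0.0017) and *Elk3*, an ETS factor, at 0.46 (adjusted p = 0.021). *Elk3* missed the threshold in 4 of the 9 fits without an array (adjusted p up to 0.073).

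Of 14 further genes listed as targets of SRF or MRTF-A, 1 rose and 2 fell. The rise was that of *Mcl1*, at 0.37 (adjusted p = 0.031), which missed the threshold in 4 of the 9 fits without an array. *Csrp2*, a LIM protein of smooth muscle, had a log2 difference of -0.91 (adjusted p = 4.8e-04), from 8.43, 8.31 and 8.42 in stimulated wild-type to 7.47, 7.48 and 7.48 in knock-down arrays. *Thbs1*, thrombospondin 1, had a difference of -0.83 (adjusted p = 0.047) and missed the threshold in 7 of the 9 fits without an array. Of 24 focal adhesion and PDZ-LIM genes 3 rose and 1 fell. *Pdlim2*, which binds α-actinin, rose by 1.11 (adjusted p = 0.0025), and *Enah*, the filament elongation factor Mena, had a difference of -0.84 (adjusted p = 0.0019). *Evl*, of the same family, passed at 0.30 (adjusted p = 0.048) but not with the block (adjusted p = 0.052), nor in 8 of the 9 fits without an array (adjusted p up to 0.15) or in 5 of the 7 other alternatives, the block included.

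Of 14 TGF-β ligands, receptors and Smads, the pathway that drives myofibroblast genes, 2 rose and 1 fell. *Tgfb1*, the ligand TGF-β1, was 7.06, 6.75 and 7.07 in stimulated wild-type and 7.69, 7.97 and 7.56 in knock-down arrays, a rise of 0.78 (adjusted p = 0.0068). *Tgfbr3*, the co-receptor betaglycan, was 8.13, 7.96 and 8.12 and then 7.38, 7.39 and 7.05, a difference of -0.80 (adjusted p = 0.0022). In both genes the groups stood apart without overlap. *Smad3*, a signal transducer of the receptors, differed by 0.61 (adjusted p = 0.040) and missed the threshold in 6 of the 9 fits without an array. Of 16 genes of the Arp2/3 complex and of nucleators *Diaph2*, a formin, rose by 0.45 (adjusted p = 0.030) and missed the threshold in 4 of the 9 fits without an array (adjusted p up to 0.12).

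Markers of the cells that the cultures could hold were read beside these results. Of 10 fibroblast markers 9 had a mean above 5.02, all but *Lum*, and the log2 of their summed signal, which the brightest probe sets dominate, was 13.99 to 14.21 in unstimulated wild-type, 13.91 to 14.19 in stimulated wild-type and 13.86 to 14.10 in knock-down arrays. *Dcn*, the proteoglycan decorin, had a log2 difference of -2.27 in the knock-down (adjusted p = 0.0014) and *Pdgfra*, a growth factor receptor, one of -1.89 (adjusted p = 9.5e-05). *Thy1*, a fibroblast surface protein, rose by 2.09 (adjusted p = 4.8e-04) and *S100a4* by 0.55 (adjusted p = 0.011).

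Of 8 markers of smooth muscle and pericytes, 4 lay below the median probe set mean, among them *Myocd*, the cardiac and smooth muscle coactivator of SRF, at 3.30 in stimulated wild-type and 3.20 in knock-down cells. The log2 of the list's summed signal was 7.84 to 7.96 in unstimulated wild-type, 7.87 to 7.99 in stimulated wild-type and 9.10 to 9.38 in knock-down arrays. *Kcnmb1*, a potassium channel subunit, rose by 2.28 in the knock-down (adjusted p = 4.8e-04), *Mcam*, the surface protein CD146, by 2.15 (adjusted p = 9.5e-05) and *Cspg4*, the proteoglycan NG2, by 1.23 (adjusted p = 0.0048), and the other 5 did not pass. Below the median probe set mean lay 8 of 10 skeletal muscle markers, 6 of 9 cardiac, 5 of 5 endothelial, 4 of 5 leukocyte and 5 of 5 epithelial markers. None of these passed the limma test in the knock-down, where without adjustment (p under 0.05) *Tnnt2*, cardiac troponin T, was higher and *Csf1r* lower. With the replicate number as a block *Tnnt2* passed at 0.66 (adjusted p = 0.0062, against 0.23 without it). The part of these markers in the differences of the actins, tropomyosins and α-actinins was not tested.

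**Figure D3:**
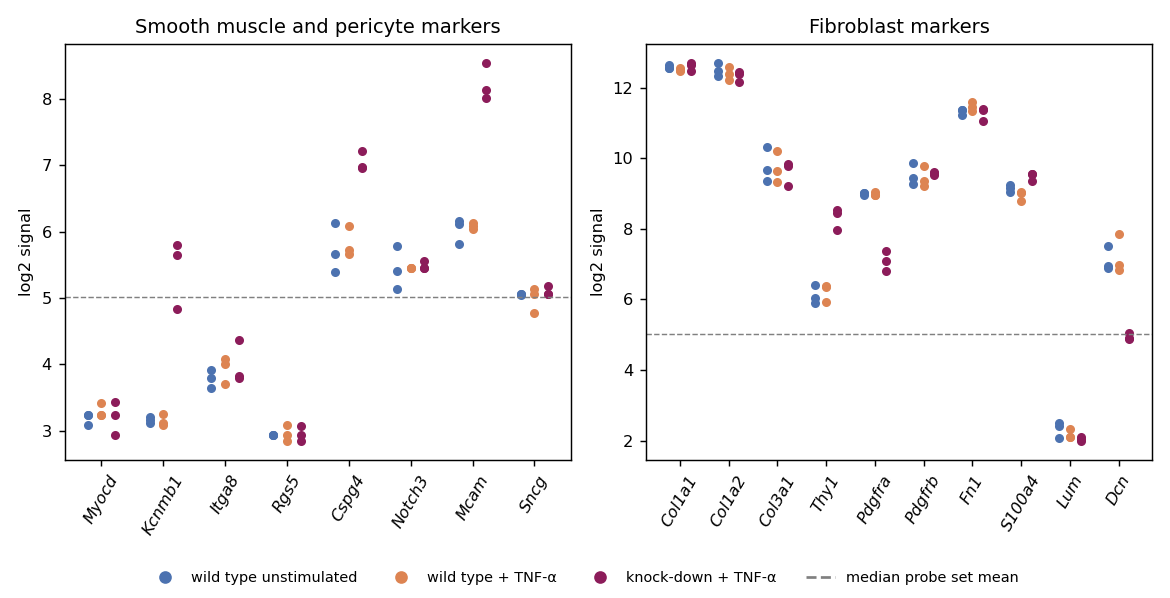
Log2 signal (vertical axis) of the smooth muscle and pericyte markers and of the fibroblast markers (horizontal axis) in the 9 arrays, each point being 1 array, with a dashed line at the median probe set mean of 5.02. *Kcnmb1*, *Cspg4*, *Mcam*, *Thy1* and *S100a4* lie higher and *Pdgfra* and *Dcn* lower in the knock-down arrays than in all wild-type arrays.

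Several of the 34 genes varied with the replicate number that the groups share. Array 3 was the highest of its group in all 3 groups in 15 of the 34 (44.1%), against 10% of tested probe sets, and array 2 was the lowest in 7 (20.6%), against 3.31%. Both held in *Acta2*, *Tagln*, *Cnn1*, *Myl9* and *Pdlim5* (14.7%, against 1.40%). Averaged over the groups, the numbers spanned 0.82 in *Actg2*, 0.80 in *Cnn1* and 0.72 in *Myl9*, wider than in 99.5%, 99.4% and 99.2% of tested probe sets. *Cnn1* read 8.89, 8.51 and 9.13 in unstimulated wild-type arrays 1, 2 and 3, an order that the stimulated wild-type and knock-down arrays above repeated. *Tagln* read 10.82, 10.70 and 10.86, then 10.80, 10.55 and 10.94, then 10.87, 10.47 and 11.15. *Mkl1* had array 1 lowest and array 3 highest in each group. Neither the labels nor the methods say what a number marks beyond an independent sample, and these orders are given without a test.

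**Figure D4:**
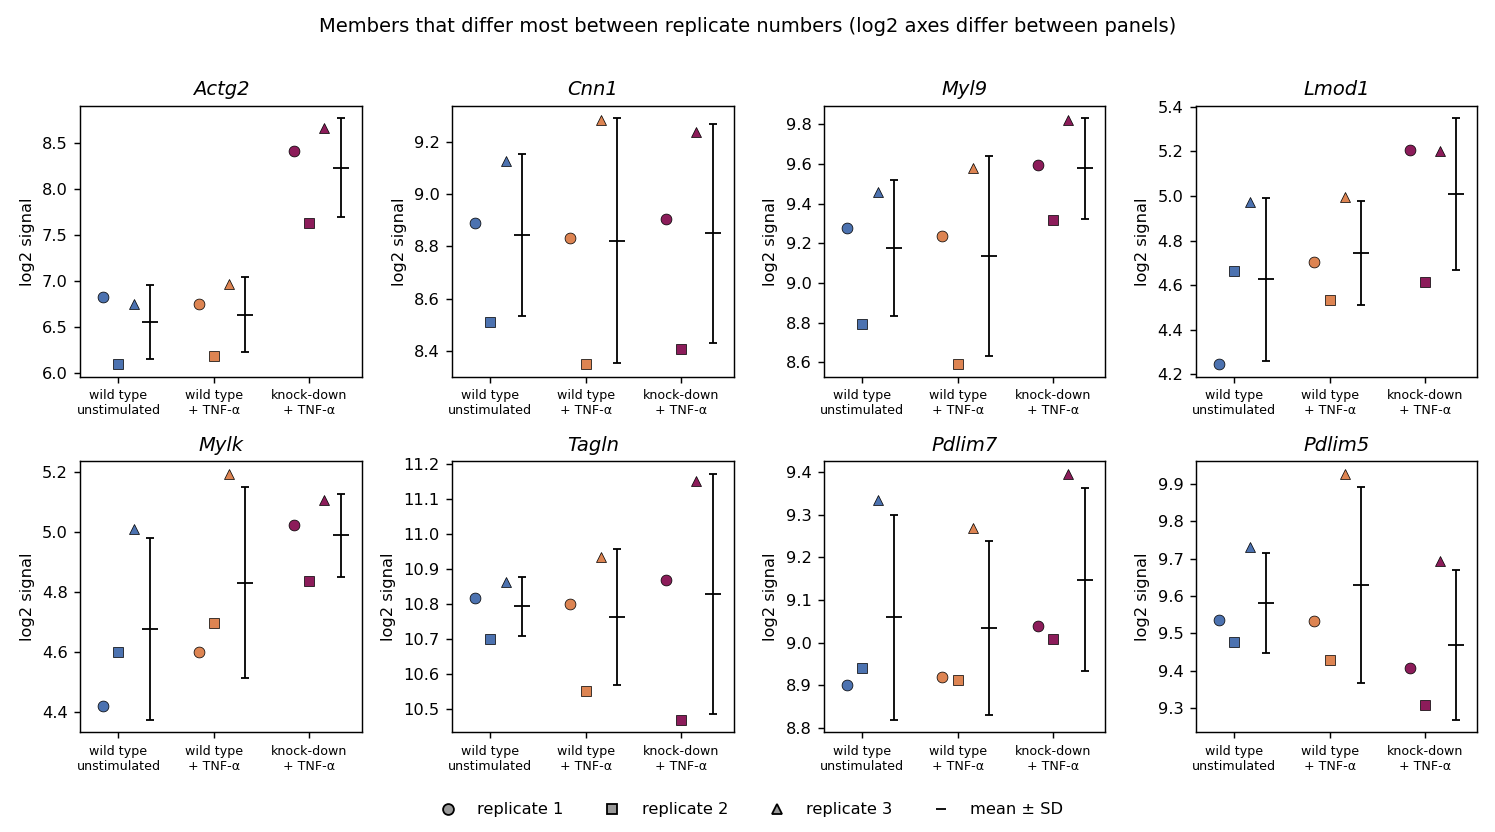
Log2 signal (vertical axis, a separate range in each panel) of the 8 genes whose means differ most between replicate numbers, in the 9 arrays by group (horizontal axis), with a symbol for each number and bars for mean ± SD of 3 arrays. In *Cnn1*, *Myl9*, *Tagln* and *Pdlim5* array 2 is the lowest and array 3 the highest of every group.

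Some array values were identical, so that an SD near 0 is not a measured precision. At least 2 of the 9 arrays held the same value in 58.9% of tested probe sets and in 7 of the 34 genes. *Des* was identical in the 3 unstimulated wild-type arrays, and *Myh11* in the 3 stimulated wild-type arrays. None of the 5 genes that passed in the knock-down was among the 7.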

How the data were processed

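Total RNA of 9 cultures was hybridised to Affymetrix mouse gene arrays. Per the labels and methods, the authors normalized the arrays with RMA and deposited log2 values, 1 per probe set and culture. The RMA version and genome build are not given in the sources used here. Groups came from the labels, which number 3 samples per group, and the methods call these samples independent. Of 35557 probe sets, the platform annotation in GEO, which can be old, gave 21789 a single gene symbol and 1621 several symbols. The 12147 others stayed unnamed and were left out.

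A single limma model (limma 3.58.1, R 4.3.3) of the 3 groups was fitted to the deposited log2 values of 23410 probe sets, with Benjamini-Hochberg adjustment over all of them and a threshold of 0.05. The methods name no model. The code was tested on simulated data. The 34 genes, gene lists and tests were chosen with earlier results of these data known. All 34 genes are named by role, those that passed or differed by 1.5-fold or more with every array, and at most 4 genes per further list. The separate result of 1 further list is not reported here, though the total over the lists includes it. The signal over background, not read depth, limits the precision of an array.

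The replicate numbers were checked over the tested probe sets. Deviations from the group mean correlated between arrays of the same number at 0.11 to 0.40 (unstimulated and stimulated wild type) and 0.15 to 0.46 (stimulated wild type and knock-down), so the number was taken as a block in an alternative. Between unstimulated wild type and knock-down it was 0.0022 to 0.22. Arrays of different numbers reached 0.25. Other alternatives were the 6 arrays compared, all probe sets, brighter probe sets, median centring and quantile normalization. Further ones were trend and robust variance, the mean over a gene's probe sets, a filter after that of the methods and each array left out. Promoter windows came from RefSeq (GRCm38.p6).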

Additional observations from a re-analysis of the deposited data

How the results depend on the processing

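The median log2 difference of the 34 genes was -0.05 to 0.02 for TNF-α, 0.12 to 0.19 for the knock-down and 0.13 to 0.15 for the knock-down against unstimulated cells over 4 alternatives of probe set and scaling, and both median centring and keeping only brighter probe sets turned the sign of the first. Without an array it ranged from -0.05 to 0.04 for TNF-α, from 0.10 to 0.22 for the knock-down and from 0.11 to 0.18 for the last. The count of genes that passed was less stable. For the knock-down it was 5, and 3 to 7 without an array. It was 8 with trend and robust variance, where 1440 of all tested probe sets passed, against 1395 in the main fit. Among the 30 genes kept with only brighter probe sets it was 9, where 1584 of the fewer probe sets tested passed, a larger share. With the replicate number as a block it was 8, adding *Myl9*, *Smtn* and *Tln1*, and in the comparison with unstimulated cells the block added *Myl9*. The block changed no other call of the 34 genes. By the methods' filter (unadjusted p under 0.1 and an SD of the differences below 0.5 of their mean) the counts were 1 for TNF-α, 14 for the knock-down and 13 against unstimulated cells, in place of 0, 5 and 7. Against unstimulated cells it was 5 to 8 without an array.

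Over all probe sets, 27 passed for TNF-α, with 9 in the fit of 6 arrays, 11 with all probe sets, 41 with brighter ones, 47 after quantile normalization, 55 with the block, 9 to 23 without an array and 1746 by the methods' filter. For the knock-down 1395 passed, with 839 when all probe sets were tested, 2108 with the block, 738 to 1596 without an array and 3843 by the methods' filter. Against unstimulated cells 1932 passed, with 1147 to 1944 without an array and 4662 by the methods' filter. Single genes were followed where they had an unadjusted p under 0.05 or a pass with the block, as were the named genes of other lists. All alternatives but the methods' filter were used, and for genes of other lists the mean over probe sets was left out too. Per gene, comparison and alternative, 1092 kept direction and side of the threshold, 178 lost their pass, 20 gained one and 0 changed sign. The causes were not tested. Only deposited values were used, so another background correction was not run, and the signals of *Des*, *Myh11*, *Mylk* and *Lmod1* lay below the median over all probe sets.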
